A study of Mus musculus with 6 samples.

Results

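The tubulin isotypes are the genes for the alpha- and beta-tubulin subunits of microtubules. Of the 10 isotypes chosen by name (Tuba1a, Tuba1b, Tuba1c, Tuba4a, Tuba8, Tubb2a, Tubb2b, Tubb3, Tubb5 and Tubb6), 9 were matched by symbol among the 34433 gene symbols of the expression table, and Tubb3 was not analysed here. Where a symbol had more than 1 entry, the entry with the highest level was taken. RNA was sequenced from motor neurons (MNs) made from mouse embryonic stem cells (mESCs) of the FVB/N strain. Hb9 control mESCs carried the human SMN2 transgene and an intact mouse Smn gene (SMN2+/+;mSmn+/+). A2 SMA mESCs, the model of spinal muscular atrophy (SMA), carried the same transgene and lacked mouse Smn (SMN2+/+;mSmn-/-). Their MNs are called Hb9 and A2 MNs here. Both lines held the HB9:eGFP reporter, in which the promoter of the motor neuron gene Hb9 (Mnx1) drives green fluorescent protein. Embryoid bodies of both lines were treated for 5 days with 1 µM retinoic acid and 1 µM Smoothened agonist. Living green cells were then sorted, with 3 samples per genotype. Each genotype was a single mESC line, so genotype and line cannot be told apart.

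Microtubules are built from dimers of 1 alpha- and 1 beta-tubulin, and mammals have several genes for each. The isotypes are alike in most of their length and differ mainly in a short acidic tail at the carboxyl end, where enzymes remove or add tyrosine and add chains of glutamate or glycine. Tuba1a, Tubb2a, Tubb2b and Tubb3 are abundant in developing neurons, in which microtubules fill axons and dendrites, and mutations in several of them are known from human malformations of the cortex. Tuba1b, Tuba1c, Tubb5 and Tubb6 are made in many cell types. Tuba4a and Tuba8 are more restricted to certain tissues.

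The tails of 3 beta isotypes are shown because they are where the proteins differ most. The last 60 coding bases, without the stop codon, were read from the GENCODE M21 annotation of GRCm38. Capitals mark bases that differ from Tubb5 in the alignment or have no partner in it.
Tubb5 (chr17:35834985-35835044, minus strand): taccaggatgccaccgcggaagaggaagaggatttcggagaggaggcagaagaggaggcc
Tubb2a (chr13:34074471-34074530, minus strand): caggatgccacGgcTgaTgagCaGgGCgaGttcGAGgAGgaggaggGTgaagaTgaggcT
Tubb2b (chr13:34127474-34127533, minus strand): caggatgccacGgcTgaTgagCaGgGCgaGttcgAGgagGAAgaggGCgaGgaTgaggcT
Tubb2a differed from Tubb5 at 17 of the 60 bases and Tubb2b at 18, counting bases without a partner in Tubb5. The coding parts of Tubb2a and Tubb2b held 445 codons and that of Tubb5 444. The Tubb5 stretch thus starts a codon earlier. The 20 codons shown held 8 glutamate and 3 aspartate codons in Tubb2a and in Tubb2b, against 9 and 2 in Tubb5.

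Levels are in FPKM, a count of fragments scaled to the length of the transcript and the size of the library, so levels of different genes can be set side by side. The table held 1 FPKM value per genotype, computed by the authors over the 3 samples together. No spread between samples, standard deviation or test could therefore be computed here from the levels, the authors' own test columns were not used, the reads behind each value were not computed here, and every difference below is a difference between 2 pooled values. Differences are given as the log2 ratio of A2 SMA over Hb9 MNs. Differences of at least 2-fold were counted over genes above 0 in both genotypes that reached 1 FPKM in at least 1 of them. Of these 15784 genes, 65.9% were lower in A2 MNs and the median log2 ratio was -0.29, with quartiles of -0.89 and 0.19. Of all these genes, 22.2% were at least 2-fold lower and 6.78% at least 2-fold higher, the shares against which counts below are to be read. Smn1, the gene deleted in the A2 line, stood at 137 FPKM in Hb9 MNs and 5.26 FPKM in A2 MNs, a log2 ratio of -4.70.

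Levels of cell type markers also differed between the genotypes, and sums below are over the genes counted. All 10 pan-neuronal markers were at least 2-fold lower in A2 MNs, with a median log2 ratio of -3.90, and their summed level was 1530 FPKM against 153 FPKM. Of 6 motor neuron markers counted (8 were listed), 5 were at least 2-fold lower, with a median of -4.62 and summed levels of 216 and 52.4 FPKM. Mnx1, whose promoter drives the reporter used in the sort, stood at 41.2 FPKM and 44.2 FPKM. Of the other motor neuron markers counted, Lhx3, Lhx4 and Chat were below 1 FPKM in A2 MNs, at 0.348, 0.501 and 0.344 FPKM. Isl1 and Isl2 were above it, at 5.95 and 1.15 FPKM. All 8 pluripotency markers were at least 2-fold higher, with a median of 2.69 and summed levels of 278 and 1821 FPKM. Of 6 neural progenitor markers counted, 5 were at least 2-fold lower, with summed levels of 815 and 39.9 FPKM. Markers of feeder fibroblasts were at least 2-fold lower in 5 of 6 cases, with sums of 103 and 37.7 FPKM. Of endoderm markers, 2 of 4 counted were, with sums of 86.3 and 36.4 FPKM, and of glia markers 1 of 2, with sums of 31.9 and 13.4 FPKM. The table marks 9 of the 42 markers counted with a failed estimate, Lhx4, Elavl3, Stmn2, Nes, Esrrb, Tdgf1, Utf1, Col1a1 and Gata4. No analysed marker was at 0 in either genotype. In sorted bulk samples, fewer cells of a type and less RNA per cell cannot be told apart, and the part of these marker differences in the isotype levels was not tested.

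The isotypes split by class. All 3 neuron-enriched isotypes analysed were at least 2-fold lower in A2 MNs, all 4 ubiquitous isotypes were within 2-fold, and of the others Tuba4a was at least 2-fold higher. Relative to the median gene, Tuba1c (1.13) and Tuba8 (1.08) also passed 2-fold, so the isotypes at least 2-fold higher then numbered 3. Tuba1c and Tuba8 reached the limit of 1 FPKM only in A2 MNs. With 1 FPKM added to both values and no centring, their log2 ratios were 0.40 and 0.38. Over the 9 isotypes, 3 were at least 2-fold lower, where 22.2% of all genes were, and 1 was at least 2-fold higher, where 6.78% of all genes were. These counts and shares are not centred, and centred shares of all genes were not computed. The median log2 ratio of the 9 isotypes, -0.29, was that of the median gene, and 4 of the 9 lay above the median gene.

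Tuba1a, the main alpha-tubulin of young neurons (NCBI m37, chr15:98780265-98783982), stood at 319 FPKM in Hb9 MNs and 61.8 FPKM in A2 MNs. The level in A2 MNs was 19.4% of that in Hb9 MNs, a log2 ratio of -2.37. These are RNA levels, and the paper lists alpha-tubulin protein as higher in SMA MNs, from an earlier study. In Hb9 MNs 98.7% of the 15784 genes had a lower FPKM than Tuba1a, and in A2 MNs 84.5% had.

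Tubb2a and Tubb2b are neighbouring beta-tubulin genes with largely shared coding sequence. Tubb2b (chr13:34218271-34222337) stood at 108 FPKM in Hb9 MNs and 16.3 FPKM in A2 MNs, a log2 ratio of -2.73. Tubb2a (chr13:34166170-34169877) stood at 50.03 FPKM and 8.53 FPKM, a log2 ratio of -2.55. Both were thus lower by a like factor, and the ratio of Tubb2b to Tubb2a was 2.16 in Hb9 MNs and 1.91 in A2 MNs. The position of Tubb2a in the range of gene levels went from above 76.7% of genes to above 40.1%, and that of Tubb2b from 90.9% to 54.4%. Of all genes, 6.60% had a log2 ratio below that of Tuba1a, the highest of these 3 isotypes.

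Tubb5, the beta-tubulin of dividing and many other cells (chr17:35970871-35975251), was the most abundant isotype in both genotypes, at 1826 FPKM in Hb9 MNs and 1318 FPKM in A2 MNs. Its log2 ratio was -0.47. Tubb6, a widely made beta-tubulin, stood at 102 FPKM and 83.4 FPKM, a log2 ratio of -0.29. Set against the median gene, Tubb5 had a log2 ratio of -0.18 and Tubb6 one of -0.0034, so neither stood apart from the bulk of genes.

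Tuba1b (chr15:98761856-98764996), the alpha-tubulin of most proliferating cells, stood at 31.7 FPKM in Hb9 MNs and 36.8 FPKM in A2 MNs, a log2 ratio of 0.22. Tuba1c (chr15:98860322-98868536) stood at 0.680 FPKM and 1.22 FPKM, a log2 ratio of 0.85. Tuba8 (chr6:121160752-121176872), an alpha-tubulin of a few tissues such as testis and muscle, stood at 0.682 FPKM and 1.18 FPKM, a log2 ratio of 0.79. Tuba1c and Tuba8 lay near the lower limit of 1 FPKM in both genotypes, above 1.96% and 1.97% of genes in Hb9 MNs and above 10.3% and 9.92% in A2 MNs, and their ratios rest on low values.

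Tuba4a (chr1:75207413-75215828), an alpha-tubulin whose gene does not encode the final tyrosine, stood at 8.995 FPKM in Hb9 MNs and 28.3 FPKM in A2 MNs. It was 3.15-fold higher, a log2 ratio of 1.65, and was the isotype with the highest ratio. Its position went from above 34.0% of genes to above 67.7%. The gene Stk16 has the same locus coordinates in the table, stood at 74.3 FPKM and 53.0 FPKM, and had a log2 ratio of -0.49.

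**Figure D1:**
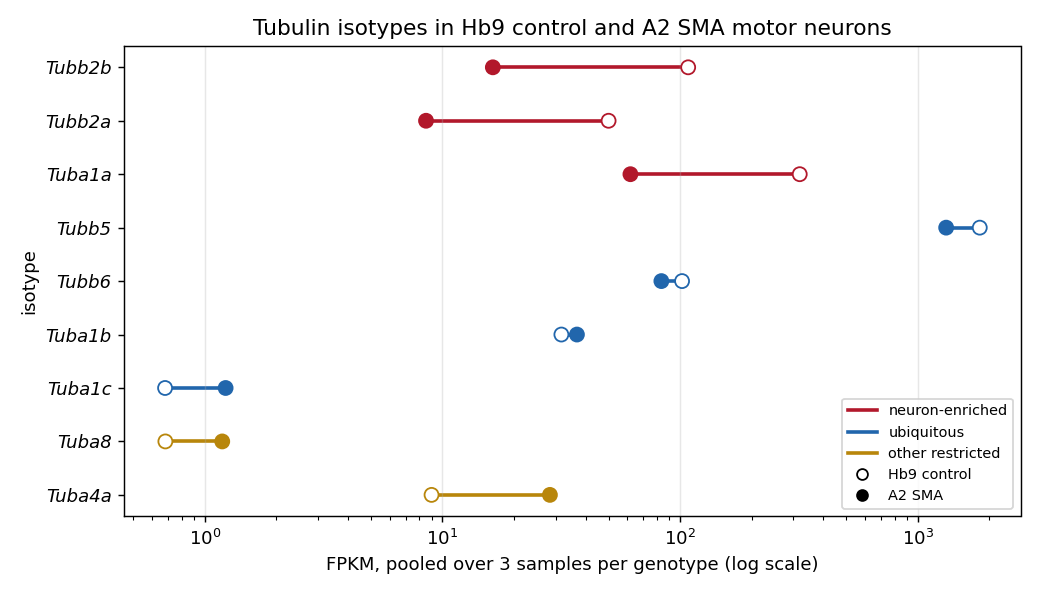
Levels of the 9 tubulin isotypes analysed, in FPKM on a log axis, with 1 pooled value per genotype (open circles, Hb9 MNs; filled circles, A2 MNs) and colours for the isotype class. The 3 neuron-enriched isotypes lie lower in A2 MNs, Tubb5 lies highest, at 1826 and 1318 FPKM, and Tuba4a moves from 8.995 to 28.3 FPKM.

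As a class, the neuron-enriched isotypes summed to 477 FPKM in Hb9 MNs and 86.6 FPKM in A2 MNs, or 18.2% of the control level. The ubiquitous isotypes summed to 1960 FPKM and 1440 FPKM, or 73.5%. Log2 ratios of the neuron-enriched class ran from -2.73 to -2.37 and those of the ubiquitous class from -0.47 to 0.85. The classes thus did not overlap and were 1.90 apart at their closest. Over all genes 22.2% were at least 2-fold lower and 6.78% at least 2-fold higher, so most genes were within 2-fold, as the ubiquitous isotypes were. The classes were chosen with earlier results of these data known. The medians of the classes, -2.55 and -0.036, differed by -2.52. Tuba1c, which sets the upper end of the ubiquitous class, passed the limit of 1 FPKM only in A2 MNs, and against Tubb5 and Tubb6 alone the difference was -2.17. With 3 and 4 genes, and 1 value per genotype, this is a description of these libraries. The summed level of all 9 isotypes was 2447 FPKM in Hb9 MNs and 1556 FPKM in A2 MNs, and the share of the neuron-enriched class in it was 19.5% and 5.57%.

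**Figure D2:**
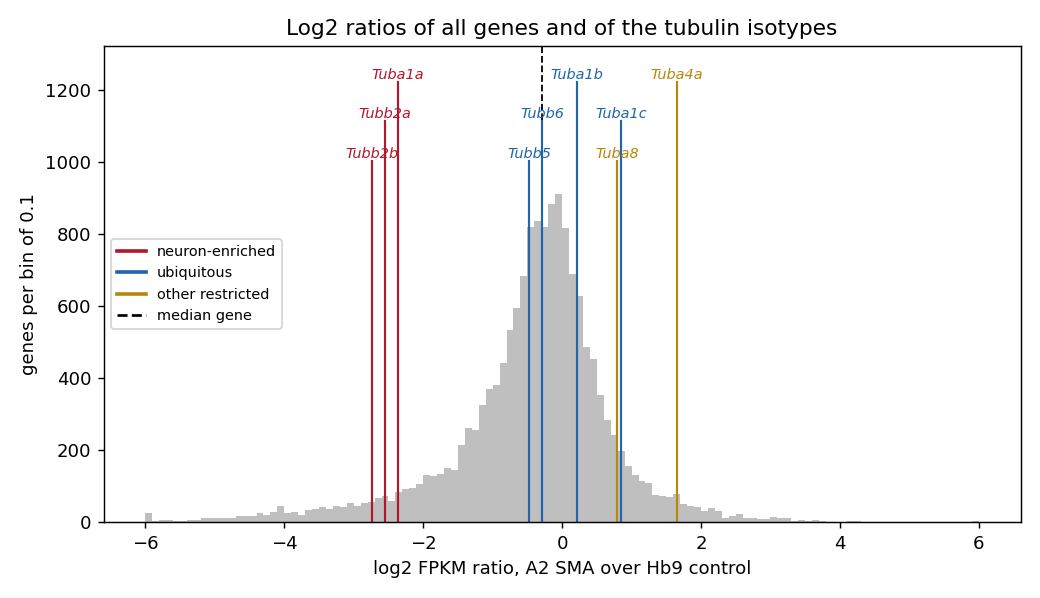
Number of genes per bin of 0.1 in the log2 FPKM ratio of A2 SMA over Hb9 MNs, over 15784 genes, with ratios beyond 6 in either direction placed in the end bins. Vertical lines mark the isotypes by class and the dashed line marks the median gene at -0.29; the neuron-enriched isotypes lie between -2.73 and -2.37, in the lower tail, and Tuba4a lies at 1.65.

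In percentage points, and without Tubb3, the make-up of the alpha-tubulin messages differed more than that of the beta-tubulin messages. The 5 alpha isotypes summed to 361 FPKM in Hb9 MNs and 129 FPKM in A2 MNs, a log2 ratio of -1.48. Tuba1a made up 88.4% of this sum in Hb9 MNs and 47.8% in A2 MNs. Most of its 50-base windows also occur in other genes, and Tuba1a, Tuba1b and Tuba1c taken as 1 held 97.3% and 77.2%. The share of Tuba1b was 8.77% and 28.5%, and that of Tuba4a 2.49% and 21.9%. Tuba1a stood 10.1 times above Tuba1b in Hb9 MNs and 1.68 times above it in A2 MNs.

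The 4 beta isotypes analysed summed to 2086 FPKM in Hb9 MNs and 1427 FPKM in A2 MNs, a log2 ratio of -0.55. Tubb5 made up 87.5% and 92.4% of the sum, and Tubb6 4.89% and 5.85%. Tubb2a and Tubb2b together held 7.58% in Hb9 MNs and 1.74% in A2 MNs. Tubb5 stood 16.9 times above Tubb2b in Hb9 MNs and 80.9 times above it in A2 MNs. The sums do not include Tubb3, so the shares are shares of the isotypes analysed. The ratio of summed beta to summed alpha levels was 5.78 in Hb9 MNs and 11.0 in A2 MNs. With both Tuba1a entries of the table added up (described below), it was 3.62 and 8.25, and Tuba1a held 92.7% and 60.9% of the alpha sum.

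**Figure D3:**
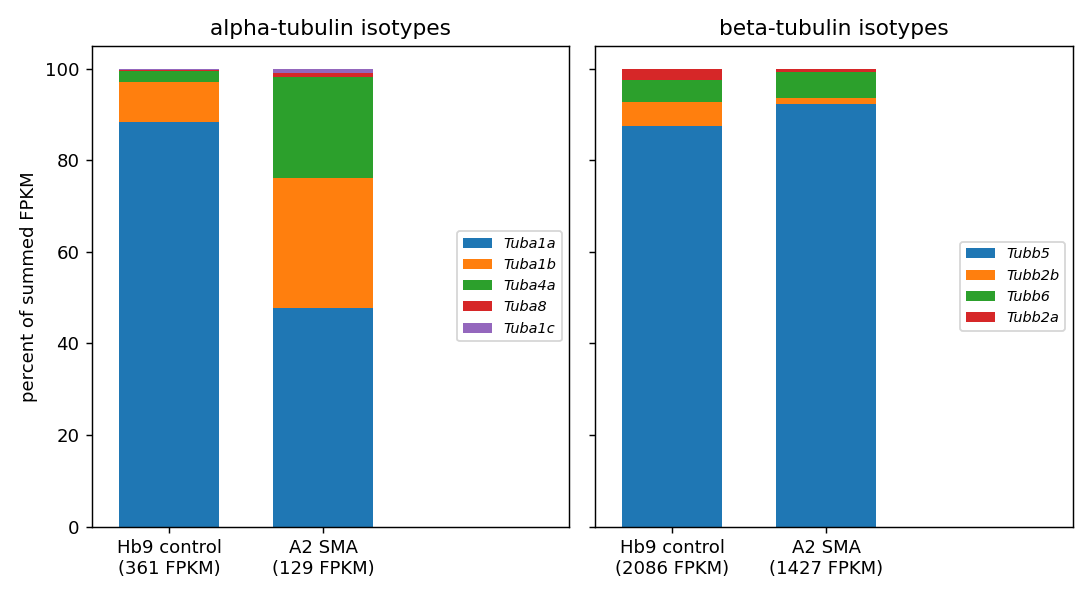
Share of each isotype in the summed FPKM of the alpha isotypes (left) and of the beta isotypes (right), in percent, with 1 bar per genotype and the sum in FPKM under each bar. Tuba1a goes from 88.4% to 47.8% of the alpha sum (with Tuba1b and Tuba1c, which share its sequence, from 97.3% to 77.2%), while Tubb5 holds 87.5% and 92.4% of the beta sum.

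Reads were single-end and 50 bases long at most, so the assignment of a read to 1 isotype depends on how much of its transcript is its own. Every 50-base window of the principal GENCODE M21 transcript of each isotype was looked for, on either strand, in the transcripts of all other genes. For Tuba1b, 83.1% of windows were also found in another gene, for Tuba1a 75.5% and for Tuba1c 61.0%. Within the coding part these shares were 95.9%, 93.9% and 90.8%. The coding sequences of Tuba1a and Tuba1b were 98.3% identical, those of Tuba1a and Tuba1c 97.1%, and those of Tuba1b and Tuba1c 97.9%. The levels of Tuba1a, Tuba1b and Tuba1c are therefore uncertain relative to each other, as the authors' counting could have split shared reads among them. Whether shared reads were also lost was not examined. The levels themselves, the alpha sums and the beta to alpha ratios are thus uncertain too. Beside the isotypes, 10 other genes shared at least 10% of windows with Tuba1a, Tuba1b or Tuba1c, and the 6 of these with an entry summed to 0.891 FPKM in Hb9 MNs and 0.257 FPKM in A2 MNs.

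Tubb2a and Tubb2b were 96.5% identical in their coding parts. Tubb2a shared 49.6% of its windows with other genes and Tubb2b 39.3%, mostly with each other. The split between the pair is thus uncertain, while the pair as a whole was lower in A2 MNs by the values above. By contrast, Tubb5 shared 0.115% of its windows and Tubb6 none, by exact matches of 50 bases. Shorter reads and mismatched alignments were not examined. In Tuba4a, 48.8% of all windows were shared, 47.7% with Stk16, but only 2.39% of coding windows were. Tuba8 shared 14.7%.

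**Figure D4:**
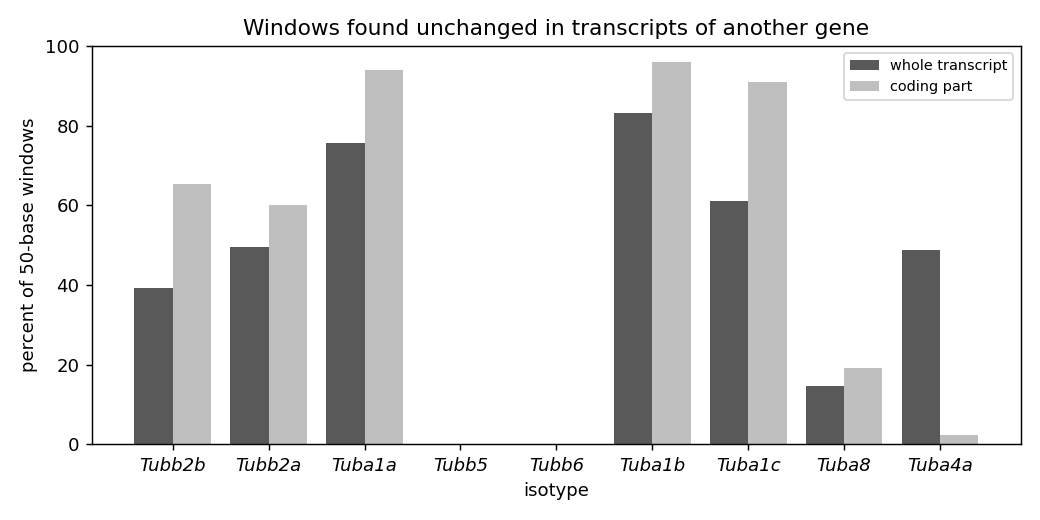
Percent of 50-base windows of each isotype's transcript that occur unchanged in a transcript of another gene, for the whole transcript (dark bars) and its coding part (light bars). Tuba1a, Tuba1b and Tuba1c share over 90% of their coding windows, and Tubb5 and Tubb6 almost none.

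Tuba1a had 2 entries at the same locus in the table. The one used went from 319 to 61.8 FPKM, with a log2 ratio of -2.37, and the other from 215 to 43.6 FPKM, with a log2 ratio of -2.31. The library kit does not mark strand and the table gives none, so reads of 1 strand cannot be told from those of the other here. In the GENCODE annotation Tuba1a and Tuba1b lie on the minus strand and Tuba1c on the plus strand. The entry used is numbered near that of Tuba1c, and the other entry next after that of Tuba1b. The entry used may thus belong to the opposite strand, which was not tested. The alpha sums and shares above rest on it unless both entries are named. Beside Tubb2b lay 4 entries without a gene symbol, 1446 to 3788 bases away, which were picked out after their values were seen. They stood at 1.62 to 5.71 FPKM in Hb9 MNs and 0.105 to 0.948 FPKM in A2 MNs, with log2 ratios from -3.95 to -2.43.

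Promoters of 3 isotypes are shown because Tuba1a and Tubb2a were lower together while Tubb5 was within 2-fold. The 250 bases before the transcription start were taken from RefSeq (GRCm38.p6), which matched 7 of the 10 isotypes. Capitals mark, on either strand, a CCAAT box, a GC box, a TATA motif or 1 of 3 E-boxes. The GC box searched was GGGCGG. The TATA motif searched was TATAAA. The E-boxes searched were the form CAGCTG, the form CATCTG and the form CAGGTG.
Tuba1a (chr15:98953502-98953751, minus strand): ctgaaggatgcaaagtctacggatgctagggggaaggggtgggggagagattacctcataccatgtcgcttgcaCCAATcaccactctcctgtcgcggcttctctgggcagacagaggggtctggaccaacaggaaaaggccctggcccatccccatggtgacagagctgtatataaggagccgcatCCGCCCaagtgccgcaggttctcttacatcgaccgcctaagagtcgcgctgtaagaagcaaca
Tubb2a (chr13:34078009-34078258, minus strand): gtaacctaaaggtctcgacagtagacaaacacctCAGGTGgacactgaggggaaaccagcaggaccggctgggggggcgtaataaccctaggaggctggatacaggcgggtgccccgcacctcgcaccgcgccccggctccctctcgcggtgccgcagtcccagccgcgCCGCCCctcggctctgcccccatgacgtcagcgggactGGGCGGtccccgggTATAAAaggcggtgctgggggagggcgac
Tubb5 (chr17:35838302-35838551, minus strand): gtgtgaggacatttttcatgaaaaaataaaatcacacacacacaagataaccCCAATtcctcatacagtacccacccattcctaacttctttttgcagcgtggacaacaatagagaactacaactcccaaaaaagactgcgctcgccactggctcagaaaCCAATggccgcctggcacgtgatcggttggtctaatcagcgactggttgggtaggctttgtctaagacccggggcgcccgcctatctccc
Tuba1a held 1 CCAAT box and 1 GC box, Tubb2a held 2 GC boxes, 1 TATA motif and 1 CAGGTG, and Tubb5 held 2 CCAAT boxes. Of the other 4 promoters, that of Tuba1b held 2 GC boxes and 1 CAGCTG, that of Tuba4a 2 GC boxes and 1 CAGGTG, that of Tuba1c 1 CCAAT box and that of Tuba8 none. Among 32851 promoters of the same length, 33.8% held a CCAAT box, 32.7% a GC box and 12.4% a TATA motif. The E-box CAGCTG was in 13.001% of them, the form CATCTG in 14.4% and the form CAGGTG in 17.2%. No motif searched was shared by Tuba1a and Tubb2a other than the GC box, which Tuba1b and Tuba4a also held. Only exact letters were searched, so variant forms, such as another TATA form in the Tuba1a promoter, were not marked. These are matches of letters and not binding sites.

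Of 69 genes that make, fold, modify or cut tubulin, all were analysed and 61 passed the limit of 1 FPKM. Of the 61, 9 (14.8%) were at least 2-fold lower in A2 MNs, against 22.2% of all genes, and 2 were at least 2-fold higher, against 6.78%. Relative to the median gene 6 were lower and 4 higher, with the calls of Tubd1, Ttll1 and Spast lost and those of Tubb4b and Katnal2 gained. The shares of all genes past 2-fold relative to the median gene were not computed. The median log2 ratio of the 61 genes was -0.33, near that of all genes. The genes at least 2-fold lower were Tubb4a, Tubd1, Vash1, Vash2, Ttll1, Atat1, Katnal1, Fign and Spast.

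Of the other alpha- and beta-tubulins, 4 of 6 were counted. Tubb4a, a beta-tubulin of neurons and oligodendrocytes, stood at 36.8 FPKM in Hb9 MNs and 5.43 FPKM in A2 MNs, a log2 ratio of -2.76. Tuba3a, an alpha-tubulin known from testis, stood at 12.1 FPKM and 28.3 FPKM, a log2 ratio of 1.22. Tubb4b, a widely made beta-tubulin, stood at 4.80 FPKM and 8.03 FPKM, a log2 ratio of 0.74. Tubb4b was within 2-fold, and at 1.03 relative to the median gene it passed 2-fold.

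Nucleation of microtubules rests on gamma-tubulin and its ring complex. Tubg1, the main gamma-tubulin, stood at 49.3 FPKM in Hb9 MNs and 30.9 FPKM in A2 MNs, a log2 ratio of -0.67. Tubd1, the delta-tubulin of centrioles, had a log2 ratio of -1.11, Tubg2 of -0.84 and Tube1, the epsilon-tubulin, of -0.48. All 9 ring complex genes were within 2-fold, from -0.77 for Mzt2 to -0.05 for Nedd1. Tubgcp4, Tubgcp3 and Tubgcp2 were the most abundant of them, at 51.2, 45.9 and 38.9 FPKM in Hb9 MNs and 34.2, 31.2 and 37.2 FPKM in A2 MNs, and the table marks the entries of Tubgcp4 and Tubgcp2 with a failed estimate.

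Folding of new tubulin needs prefoldin, which hands the chains to the chaperonin, and the cofactors that join alpha to beta. None of the 7 cofactor genes differed by 2-fold. Tbcb stood at 97.6 FPKM in Hb9 MNs and 93.7 FPKM in A2 MNs, and Tbcd at 74.4 and 51.7 FPKM. Ratios ran from -0.79 for Arl2 (63.5 and 36.8 FPKM) to 0.08 for Tbcc. None of the 6 prefoldin genes differed by 2-fold, and their median log2 ratio was 0.17. Pfdn2 stood at 169 and 183 FPKM, Pfdn5 at 149 and 115 FPKM in an entry that also names Myg1, Pfdn1 at 94.7 and 113 FPKM, and Pfdn6 had the highest ratio, 0.39. Ttc5 and Scaper, which act in the decay of tubulin messages when free tubulin is high, had log2 ratios of 0.16 and 0.17.

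The genes of the tyrosination cycle had a median log2 ratio of -1.58 over 4 genes. Vash1, which with Svbp removes the final tyrosine of alpha-tubulin, stood at 78.3 FPKM in Hb9 MNs and 13.3 FPKM in A2 MNs, a log2 ratio of -2.55. Vash2, its relative, stood at 18.6 and 3.91 FPKM, a log2 ratio of -2.25. Their partner Svbp stood at 50.2 and 34.2 FPKM, a log2 ratio of -0.55. Ttl, the ligase that puts tyrosine back, stood at 11.7 and 6.28 FPKM, a log2 ratio of -0.90. Vash1 and Vash2 were lower by factors like those of the neuron-enriched isotypes, and Ttl and Svbp were within 2-fold.

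Acetylation of alpha-tubulin is made by Atat1 and removed by Hdac6 and Sirt2. Atat1 stood at 108 FPKM in Hb9 MNs and 26.5 FPKM in A2 MNs, a log2 ratio of -2.03. Hdac6 stood at 78.3 and 102 FPKM, a log2 ratio of 0.38, and Sirt2 at 60.2 and 30.4 FPKM, a log2 ratio of -0.99. The acetylase was at least 2-fold lower and neither deacetylase reached 2-fold.

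Of the 15 listed enzymes and subunits that add glutamate or glycine chains, 11 were counted, 1 at least 2-fold lower and 1 at least 2-fold higher. Ttll1, a glutamylase abundant in neurons, stood at 29.3 FPKM in Hb9 MNs and 14.1 FPKM in A2 MNs, a log2 ratio of -1.05. Ttll11, a glutamylase, stood at 0.644 and 13.5 FPKM, a log2 ratio of 4.39, the highest ratio of the 61 genes. It passed the limit of 1 FPKM only in A2 MNs, and with 1 FPKM added to both values its log2 ratio was 3.14. Ttll3, a glycylase, stood at 184 and 216 FPKM in an entry that also names Arpc4, an abundant actin regulator gene. Ttll4, another glutamylase, stood at 64.3 and 56.4 FPKM, and Tpgs1, a subunit of the Ttll1 complex, at 51.0 and 29.9 FPKM. None of the 4 deglutamylases counted differed by 2-fold. Agtpbp1, which removes glutamate chains in neurons, had the lowest ratio of them, -0.93 (26.3 and 13.8 FPKM), and Agbl2 the highest, 0.22 (0.867 and 1.01 FPKM). Agbl5, which removes branch-point glutamates, stood at 38.5 and 22.2 FPKM, and Agbl3 at 4.29 and 2.70 FPKM.

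Of 7 enzymes that cut microtubules, 3 were at least 2-fold lower and none at least 2-fold higher, where 22.2% and 6.78% of all genes were. Katnal1, a katanin subunit, stood at 20.04 FPKM in Hb9 MNs and 6.11 FPKM in A2 MNs, a log2 ratio of -1.71. Fign stood at 4.71 and 1.65 FPKM, a log2 ratio of -1.51, and Spast, mutated in hereditary spastic paraplegia, at 35.9 and 17.8 FPKM, a log2 ratio of -1.01. Fignl1 stood at 59.96 and 67.0 FPKM and Katna1, the catalytic katanin, at 46.3 and 47.3 FPKM. Katnal2 had the highest ratio, 0.86, at 50.1 and 91.2 FPKM, in an entry that also names Pias2. Relative to the median gene Spast stood at -0.72, within 2-fold, and Katnal2 at 1.15, past it.

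**Figure D5:**
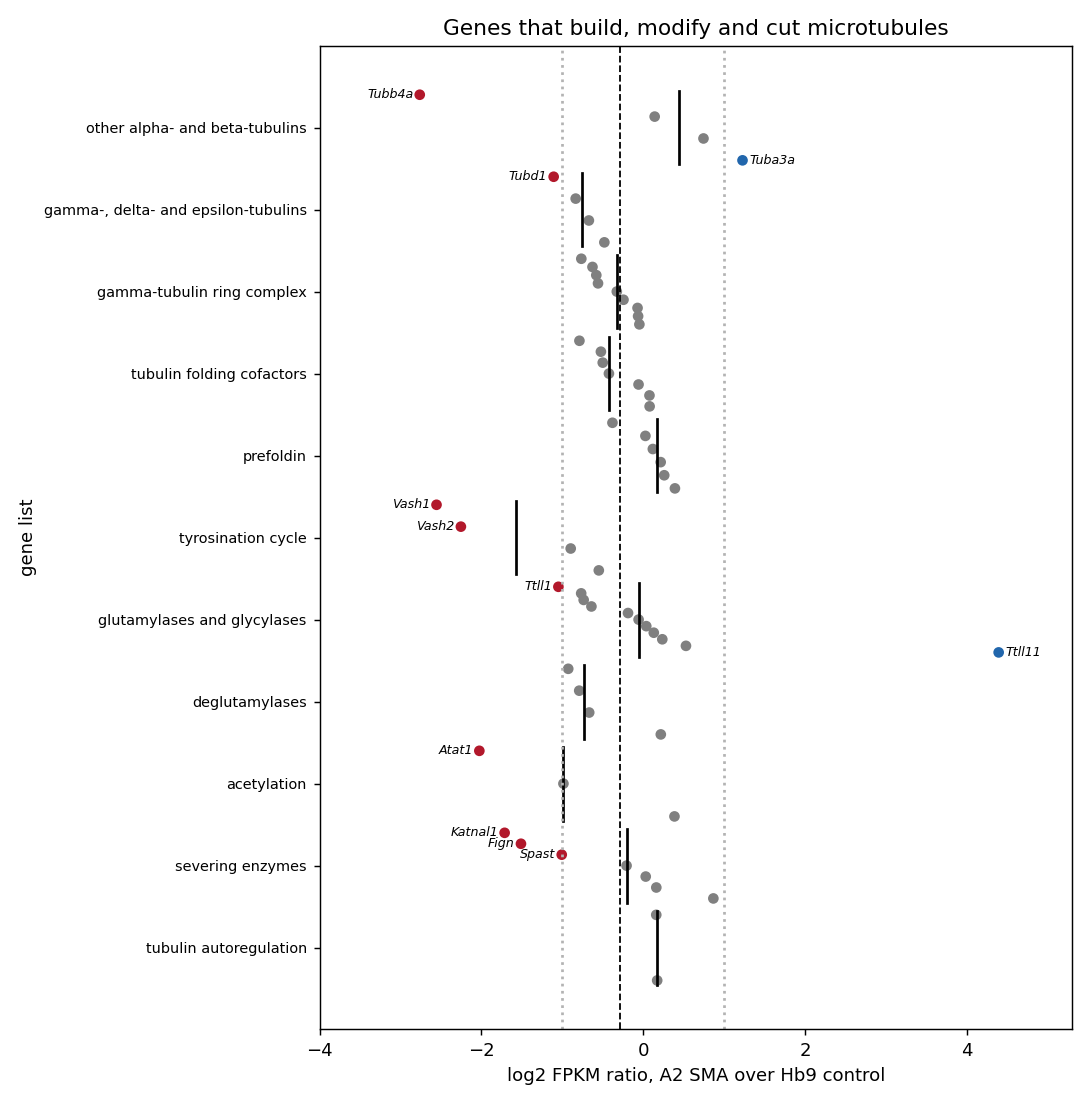
Log2 FPKM ratio of A2 SMA over Hb9 MNs for 61 genes that make, fold, modify or cut tubulin, 1 point per gene, grouped by list; black bars mark list medians, the dashed line the median gene and the dotted lines 2-fold. Genes at least 2-fold lower (red) or higher (blue) are named, among them Vash1 at -2.55, Atat1 at -2.03 and Ttll11 at 4.39.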

How the data were processed

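Sorted MNs of the 2 genotypes were sequenced in 3 samples each. The authors checked reads with FastQC 0.10.1, removed adapters with CutAdapt, aligned the rest to NCBI m37 by TopHat 2.04, using Ensembl genes, and computed FPKM per gene with Cufflinks and Cuffdiff. The deposited table gives 1 FPKM per genotype, pooled by the authors over its samples. Its fold change, test, p and q columns hold the authors' own comparison and were not used. The file gives no depth per sample, and with 1 pooled FPKM per genotype no precision was computed.

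A locus was assigned to each symbol it names, and the entry with the highest FPKM was kept. Ratios carry no pseudocount. With 1 value per genotype and the authors' test unused, no test was computed and 2-fold was the call. Locus starts, counted from 0 in the file, were raised by 1. Sequences and windows came from GENCODE M21 and RefSeq (GRCm38) and were matched by symbol, never by m37 coordinates. Some sequences are not reported here. Older symbols were matched through RefSeq synonyms. The members, their classes and all lists were chosen with earlier results of these data known. All isotypes are named. From each machinery list, the 3 genes with the highest FPKM and those with the highest and lowest ratio are named, with others where they were called 2-fold or belong to a short list, which were chosen after their values were seen. Python 3.11.15, numpy 2.4.6, pandas 2.3.3, Biopython 1.88 and matplotlib 3.10.9 were used.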

Additional observations from a re-analysis of the deposited data

How the results depend on the processing

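The isotype ratios and their class difference were recomputed under other pseudocounts, scalings and entry choices, the pool shares under other entries and pools, and the machinery counts under other filters, thresholds and centring. Marker lists were not recomputed. The log2 ratios of single isotypes kept within 1.5-fold of the reported value under all 63 comparisons. Tubb6 ran from -0.34 to 0.00083 and so lay on either side of 0, and no other isotype changed direction. The scalings took away log2 shifts of -0.29 (median gene), -0.29 (upper quartile), 0.05 (sum of FPKM) and -0.14 (Gusb, Pgk1 and Rpl13a). Under the median-gene and the upper-quartile scaling, isotypes at least 2-fold higher numbered 3 in place of 1, with Tuba1c and Tuba8 added, since the shift itself carries them past 2-fold. The 3 lower isotypes were called under every setting, and the difference of class medians ran from -2.77 (without Tubb6) to -2.17 (against Tubb5 and Tubb6 alone, a setting chosen after seeing the data). Leaving out Tuba4a and Tuba8, also chosen after seeing the data, gave a median of -0.47. Taken as 1, Tuba1a, Tuba1b and Tuba1c held 77.2% of the alpha sum in A2 MNs and 97.3% in Hb9 MNs. With a call at 1.5-fold, 22 tubulin-related genes were lower and 4 higher, by construction of the lower threshold, and centred on the median gene 6 were lower and 4 higher. The shares of all genes past 1.5-fold, or past 2-fold after centring, were not computed. These counts therefore cannot be read against all genes. Centring ended the calls of Tubd1 (-0.82), Ttll1 (-0.76) and Spast (-0.72) and added Tubb4b (1.03) and Katnal2 (1.15). With all entries of a symbol summed, the beta to alpha ratio in Hb9 MNs was 3.62 and in A2 MNs 8.25. No paired analysis was possible because the table holds 1 pooled value per genotype, and for the same reason no replicate could be left out. Reads behind single values were not computed here, so no limit of depth is given.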
